A study of Homo sapiens with 31 samples.

Results

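Aldehyde dehydrogenases are enzymes that oxidise aldehydes to carboxylic acids with NAD or NADP as the acceptor of electrons. 10 of their genes were followed here, and the members were taken as the probe sets of the array annotated to ALDH1A1, ALDH1A2, ALDH1A3, ALDH1B1, ALDH2, ALDH3A1, ALDH3A2, ALDH3B1, ALDH5A1 or ALDH18A1 alone. Each gene was read from its brightest probe set by the mean of all arrays, and ALDH1A3, which had 2, from the second one as well. They are 10 of 17314 genes measured and 10 of 19 aldehyde dehydrogenase genes on the array.

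The family matters for cyclophosphamide (CPA), an alkylating prodrug. Liver P450 enzymes turn CPA into an aldehyde, aldophosphamide, which either breaks down to the DNA-crosslinking mustard or is oxidised to the inactive carboxyphosphamide by aldehyde dehydrogenases, above all ALDH1A1 and ALDH3A1. The other members have other substrates: ALDH1A1, ALDH1A2 and ALDH1A3 make retinoic acid from retinal, ALDH2 and ALDH1B1 clear acetaldehyde and lipid peroxidation products in mitochondria, ALDH3A2 acts on long-chain fatty aldehydes, ALDH5A1 completes the breakdown of the transmitter GABA, and ALDH18A1 starts proline synthesis from glutamate.

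The arrays read tumours of PC3, a human prostate carcinoma line, grown as xenografts, in a series on resistance to metronomic CPA. The wt tumours came from the unpassaged line, conditioned in vitro and labelled sensitive. The A3, D3 and D4 tumours came from clones re-isolated after passage in vivo; A3 is labelled sensitive, D3 and D4 resistant. Tumours grew to a mean volume of 30 mm3, and 1 set of each line then received CPA intraperitoneally at 120 mg/kg while the control set stayed untreated. This gave 8 groups of line and treatment: 4 arrays in each, except untreated A3 with 3. A3, D3 and D4 are each 1 clone, so a difference between clones is a difference between those isolates. Nothing in the labels says that every array comes from a separate animal, and the p-values therefore reflect how far these arrays spread, which may in part be technical. All values are log2 expression levels after RMA. Differences are log2 differences with a standard error (SE) from a limma fit over all 31 arrays, and called means an adjusted p under 0.05 (Benjamini-Hochberg, over all genes). Small groups often separate without a call: between treated and untreated D3, arrays did not overlap for 9.6% of genes, and 0.231% were called. Where no share of genes is printed, a separation of arrays is a description only.

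Replicate arrays correlated at 0.985 to 0.997 over all genes. The tumour cell markers KRT8, KRT18, KRT19, EPCAM and HOXB13 had mean levels of 9.92, 10.00, 10.35, 8.59 and 10.53, against a median of 7.13 over genes. KLK3, which encodes prostate-specific antigen, was at 5.93, and CDH1, the epithelial cadherin, at 6.27. Host cell markers were mixed. Of 11 fibroblast and pericyte markers 5 lay above that median, among them COL1A1 and COL1A2 at 9.93 and 9.40, while DCN and LUM lay at 3.27 and 3.15. Of 9 endothelial markers KDR (8.61) lay above it, with PECAM1 at 7.07 and EMCN at 3.37. Of 9 myeloid markers CD68 (8.66) did, with PTPRC at 3.18, and of 7 adipocyte markers, from 3.43 (FABP4) to 6.49 (LIPE), none did. In whole tumours, fewer cells of a type and less RNA per cell cannot be told apart. The arrays are made for human transcripts, and PC3 is a human line grown as a xenograft. A marker listed for host cells may therefore be read from the PC3 cells, which was not tested.

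Of the 10 members, 4 differed between lines, and none passed the test for a CPA effect in any line. ALDH18A1 was 1.23 to 1.27-fold lower in untreated D3 and D4 tumours than in wt and A3. ALDH2 was lowest in D4, 1.33-fold below A3. ALDH1A3 was 1.30-fold higher in A3 and D3 and 1.23-fold higher in D4 than in wt, on 1 of its 2 probe sets. ALDH1B1 was 1.24-fold higher in A3 and 1.39-fold higher in D3 than in wt. ALDH1A1 and ALDH3A1, the members best known for oxidising aldophosphamide, passed the test in no comparison. In the F test over the 4 untreated lines, 4 of 10 members were called, beside 23.8% of all genes: ALDH18A1 (adjusted p 0.000311), ALDH1B1 (0.000691), ALDH1A3 (0.00146) and ALDH2 (0.00969).

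**Figure D1:**
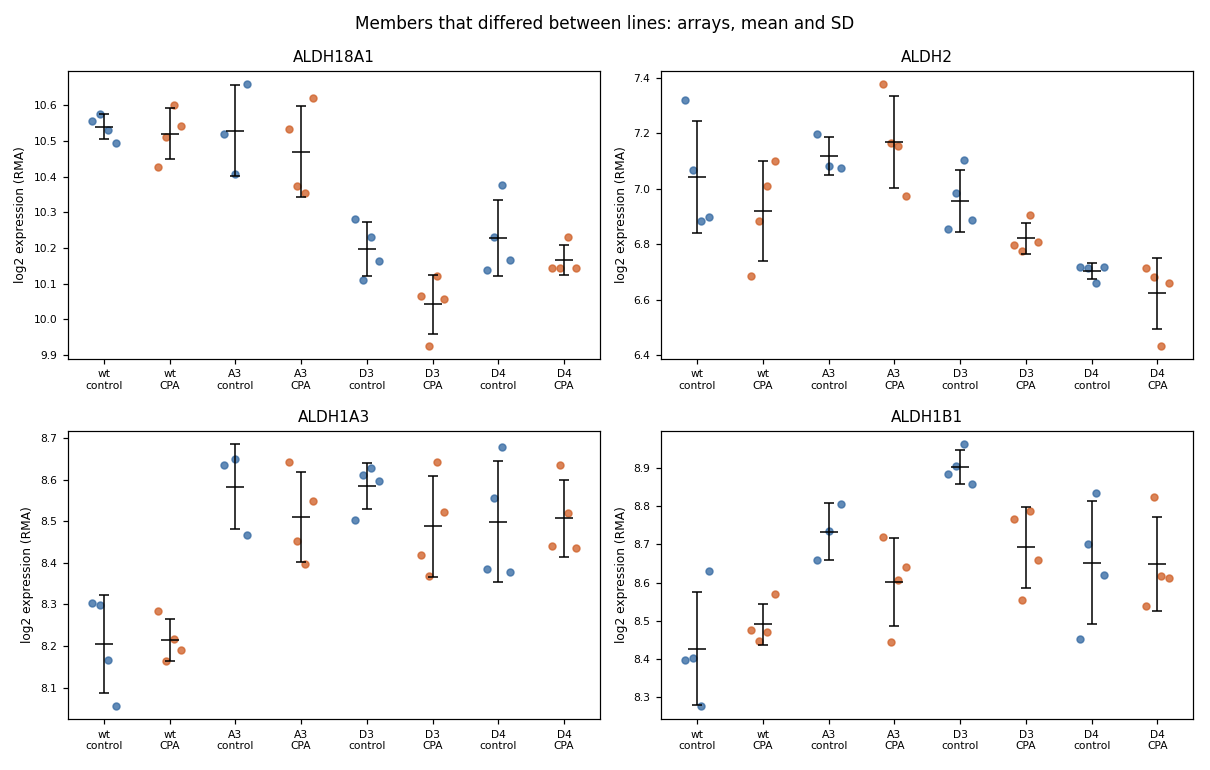
Log2 expression (vertical axis, a separate scale in each panel that does not start at 0) of ALDH18A1, ALDH2, ALDH1A3 and ALDH1B1 in the 8 groups of line and treatment; points are arrays (blue control, orange CPA), the long bar is the group mean and the whiskers its SD. ALDH18A1 lay at 10.38 or below on all D3 and D4 control arrays and at 10.41 or above on all wt and A3 control arrays.

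Among the 6 comparisons of 2 lines without treatment, 11 of 60 member tests were called, 5 higher and 6 lower, beside 10.5% of all gene tests. A3 against wt gave 2 of 10 members, beside 18.5% of genes called. D3 against wt gave 3, beside 18.1%, and D4 against wt 3, beside 20.1%. D3 against A3 gave 1 member, beside 2.27% of genes, and D4 against A3 gave 2, beside 3.77%. In D4 against D3 limma called no member, with 2 at an unadjusted p under 0.05, and called 0.323% of genes. The share of members called against wt was close to that of all genes. The median difference of the 10 members from wt was 0.05 in A3, 0.07 in D3 and 0.11 in D4, against 0.04, 0.01 and 0.05 over all genes. The comparisons against wt share the wt arrays, and those against A3 share the 3 A3 arrays.

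**Figure D2:**
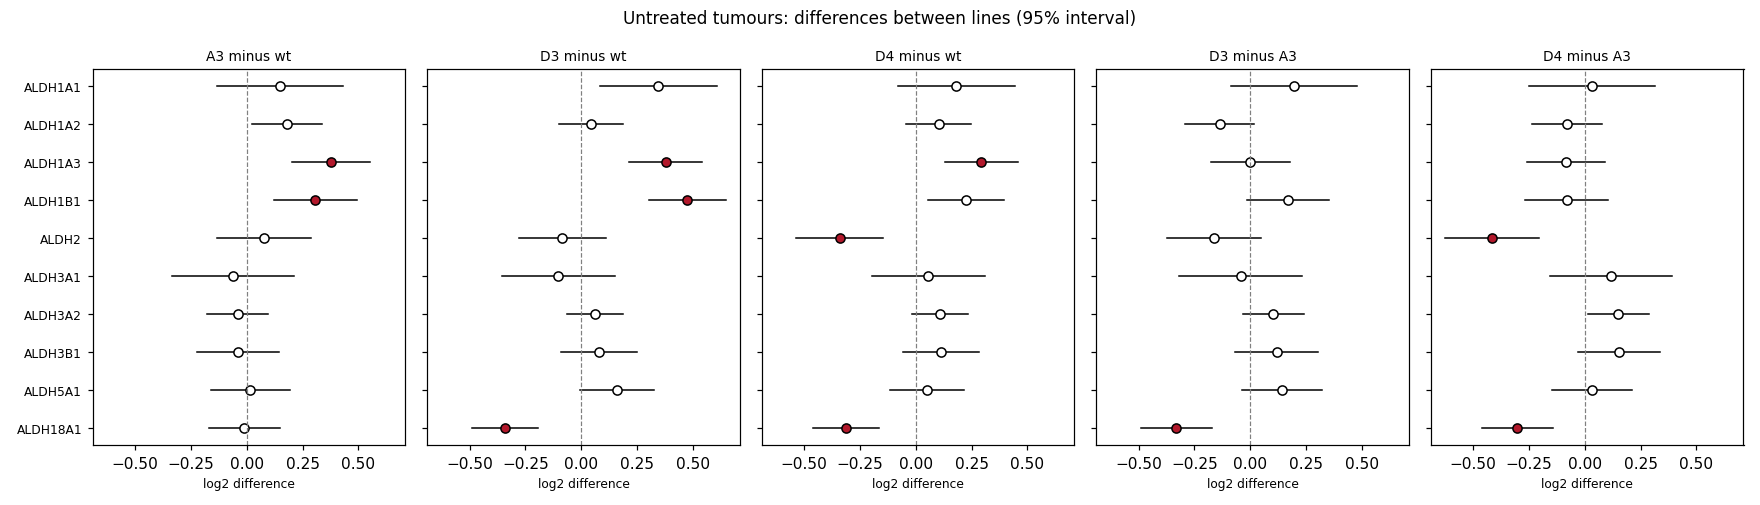
Log2 differences of the 10 members between untreated lines (horizontal axis, first line minus second), with 95% confidence intervals from the limma fit; filled circles passed an adjusted p of 0.05. Filled circles stand to the right for ALDH1A3 and ALDH1B1 against wt, and to the left for ALDH18A1 and ALDH2.

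ALDH18A1 encodes delta-1-pyrroline-5-carboxylate synthase, a mitochondrial enzyme whose kinase and reductase domains turn glutamate into the precursor of proline and ornithine. The wt control arrays read 10.56, 10.58, 10.53 and 10.49, and the A3 control arrays 10.52, 10.41 and 10.66. The D3 control arrays read 10.28, 10.11, 10.23 and 10.16, and the D4 control arrays 10.14, 10.23, 10.38 and 10.17. Every array of the resistant clones was lower than every array of wt and A3, although the highest D4 array came close to the lowest A3 array. Such a full separation of D3 and D4 from wt and A3, in either direction, was found for 1.1% of genes and for no other member.

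Against wt, ALDH18A1 was lower by -0.34 ± 0.07 (SE, 4 arrays a group) in D3 (adjusted p 0.000923) and by -0.31 ± 0.07 in D4 (adjusted p 0.00208). Against A3 the difference was -0.33 ± 0.08 in D3 (adjusted p 0.016) and -0.30 ± 0.08 in D4 (adjusted p 0.0231). A3 and wt differed by -0.01 (95% interval -0.17 to 0.15). D4 and D3 differed by 0.03 (95% interval -0.12 to 0.18). The mean of the 2 resistant clones lay -0.32 ± 0.07 from A3 (adjusted p 0.00609), and ALDH18A1 was the 1 member of 10 called there, beside 3.89% of genes. The calls against untreated A3 rest on 3 arrays: without A3 replicate 4, which read highest, the resistant clones differed from A3 by -0.25 (adjusted p 0.116), D3 by -0.27 (adjusted p 0.171) and D4 by -0.24 (adjusted p 0.213). Without A3 replicate 1, D3 and D4 differed by -0.34 (adjusted p 0.0537) and -0.31 (adjusted p 0.0718). Fitted on only the groups compared, the adjusted p was 0.0901 for the resistant clones against A3, 0.149 for D3 and 0.41 for D4.

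The same order was seen in CPA-treated tumours. The treated wt arrays read 10.43, 10.51, 10.60 and 10.54, and the treated A3 arrays 10.53, 10.37, 10.36 and 10.62. The treated D3 arrays read 10.06, 9.93, 10.12 and 10.06, and the treated D4 arrays 10.15, 10.14, 10.23 and 10.15. All 8 resistant arrays again lay below all 8 sensitive ones, a separation shown by 1.06% of genes. The difference from wt was -0.48 ± 0.07 in D3 (1.39-fold, adjusted p 2.22e-05) and -0.35 ± 0.07 in D4 (1.28-fold, adjusted p 0.000725). From A3 it was -0.43 ± 0.07 in D3 (adjusted p 0.000358) and -0.30 ± 0.07 in D4 (adjusted p 0.00543).

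The promoter sequence of ALDH18A1 is shown with those of ALDH1A3 and ALDH1B1 because these are 3 of the 4 members that differed between lines, ALDH18A1 lower in the resistant clones, ALDH1A3 higher in all clones and ALDH1B1 higher in A3 and D3 than in wt. RefSeq sequences were found for 8 of 10 members, not for ALDH2 and ALDH3A1. Each run holds the 250 bases before the annotated start in GRCh38.p14, 5′ to 3′ on the strand of the gene. Capitals mark matches, on either strand, to 6 short motifs: the E-box CACGTG, the CCAAT box, the GC box GGGCGG, the TATA box TATAAA, the core of the cAMP response element TGACGT, and the nuclear receptor element AGGTCA, of the kind that retinoic acid receptors bind. ALDH18A1 lies on the minus strand of chromosome 10 (chr10:95656712-95656961), ALDH1A3 on the plus strand of chromosome 15 (chr15:100879581-100879830) and ALDH1B1 on the plus strand of chromosome 9 (chr9:38392452-38392701).
ALDH18A1: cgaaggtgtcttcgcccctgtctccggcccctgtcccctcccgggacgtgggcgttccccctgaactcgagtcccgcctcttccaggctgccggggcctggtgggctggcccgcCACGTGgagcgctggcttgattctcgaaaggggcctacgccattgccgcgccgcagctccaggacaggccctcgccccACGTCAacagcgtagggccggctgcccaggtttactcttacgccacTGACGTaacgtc
ALDH1A3: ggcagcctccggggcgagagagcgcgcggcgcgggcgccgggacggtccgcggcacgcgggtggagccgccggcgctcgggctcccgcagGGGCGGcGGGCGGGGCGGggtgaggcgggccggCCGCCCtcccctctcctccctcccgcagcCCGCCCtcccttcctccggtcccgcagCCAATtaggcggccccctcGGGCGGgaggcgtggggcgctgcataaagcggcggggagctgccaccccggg
ALDH1B1: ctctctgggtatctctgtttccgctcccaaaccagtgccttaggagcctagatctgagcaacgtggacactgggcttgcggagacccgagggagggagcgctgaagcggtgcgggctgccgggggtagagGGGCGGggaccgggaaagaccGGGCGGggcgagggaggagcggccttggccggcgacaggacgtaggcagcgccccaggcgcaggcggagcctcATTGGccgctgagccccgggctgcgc
The ALDH18A1 window held 1 CACGTG, a letter string that 6.34% of 35116 RefSeq promoter windows of this length hold. It also held 2 TGACGT, of which 7.1% of windows hold 1 or more. The ALDH1A3 window, 82.4% G and C against a median of 58%, held 6 GGGCGG, of which 2 share a base, and 1 CCAAT. The ALDH1B1 window held 2 GGGCGG and 1 CCAAT on the opposite strand. GGGCGG was found in 42.6% of windows and CCAAT in 32.0%. TATAAA, found in 10.7% of windows, and AGGTCA, found in 12.1%, had no match in these 3 windows. A match is a match of letters and not a binding site.

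The genes whose values ran most like ALDH18A1 over the 31 arrays were SERPINA1 and SFXN3 (Pearson r 0.90 for both) and SRPRA (0.89). These are descriptions over arrays that share lines. Of 17 fixed genes of proline and glutamate metabolism, 11 were measured. Without treatment each clone had 3 of them higher than wt and none lower, beside 18.5% (A3), 18.1% (D3) and 20.1% (D4) of all genes called in either direction; the median difference was 0.06 for A3, 0.12 for D3 and 0.12 for D4, against 0.04, 0.01 and 0.05 over all genes. GOT2, the mitochondrial aspartate aminotransferase, was higher by 0.43 ± 0.07 in A3, 0.39 ± 0.06 in D3 and 0.41 ± 0.06 in D4. ASNS, asparagine synthetase, was higher than in A3 by 0.39 ± 0.11 in D3 and 0.42 ± 0.11 in D4, and so ran opposite to ALDH18A1 in these comparisons. PSAT1, a serine synthesis enzyme that uses glutamate, was higher than in wt by 0.22 ± 0.08 in D3 and 0.26 ± 0.08 in D4. In CPA-treated tumours OAT, which makes the same intermediate as ALDH18A1 from ornithine, was lower in D3 by -0.29 than in wt (adjusted p 0.00977) and by -0.30 than in A3 (adjusted p 0.021).

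The 3 members that make retinoic acid, the ligand of nuclear receptors that steer differentiation, differed in what their probe sets showed. ALDH1A3 read 8.30, 8.30, 8.17 and 8.06 on the wt control arrays. The A3 control arrays read 8.64, 8.65 and 8.47. The D3 control arrays read 8.50, 8.61, 8.63 and 8.60, and those of D4 8.38, 8.56, 8.68 and 8.38. All 11 untreated arrays of the clones were above all 4 of wt. The share of all genes that separate in this way is not given, and 18.5% (A3), 18.1% (D3) and 20.1% (D4) of genes were called against wt. The difference from wt was 0.38 ± 0.09 in A3 (adjusted p 0.00201), 0.38 ± 0.08 in D3 (adjusted p 0.000959) and 0.29 ± 0.08 in D4 (adjusted p 0.00829). The clones did not separate from each other: D3 and A3 differed by 0.00 (95% interval -0.18 to 0.18) and D4 and A3 by -0.08 (95% interval -0.26 to 0.09). For D4 the call was lost on only the groups compared (adjusted p 0.0959).

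Treated tumours gave the same picture for this probe set of ALDH1A3. Treated wt read 8.28, 8.16, 8.22 and 8.19, and the 12 treated arrays of A3, D3 and D4 read between 8.37 and 8.64. The treated clones were higher than treated wt by 0.30 ± 0.08 in A3 (adjusted p 0.00941), 0.27 ± 0.08 in D3 (adjusted p 0.0179) and 0.29 ± 0.08 in D4 (adjusted p 0.0109). Each of these 3 calls was lost without 1 of the arrays. The adjusted p was 0.0522 for A3 without A3 CPA replicate 1 and 0.0576 for D4 without D4 CPA replicate 2. For D3 it was 0.0556 without wt CPA replicate 2 and 0.0753 without D3 CPA replicate 4.

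The second ALDH1A3 probe set did not show the step between wt and the clones. It read 6.53, 6.49, 6.62 and 6.51 on the wt control arrays, 6.44, 6.66 and 6.37 on those of A3, 6.82, 6.46, 6.45 and 6.53 on those of D3, and 6.59, 6.51, 6.49 and 6.56 on those of D4. The groups overlapped throughout. In a fit over all probe sets its difference from wt was -0.05 ± 0.11 in A3 (95% interval -0.27 to 0.17), 0.03 ± 0.10 in D3 (95% interval -0.17 to 0.23) and 0.00 ± 0.10 in D4 (95% interval -0.20 to 0.20). Each upper bound lies below the difference of the brighter set, which was 0.38, 0.38 and 0.29. With the mean of both sets in place of the brighter one, the difference of untreated A3 was 0.16 (adjusted p 0.155) and that of D4 0.15 (adjusted p 0.152), and untreated D3 stayed called. In treated tumours all 3 calls were lost: the differences were 0.07 in A3 (adjusted p 0.536), 0.15 in D3 (adjusted p 0.136) and 0.15 in D4 (adjusted p 0.168). In the RefSeq table an antisense gene, ALDH1A3-AS1, overlaps ALDH1A3.

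**Figure D3:**
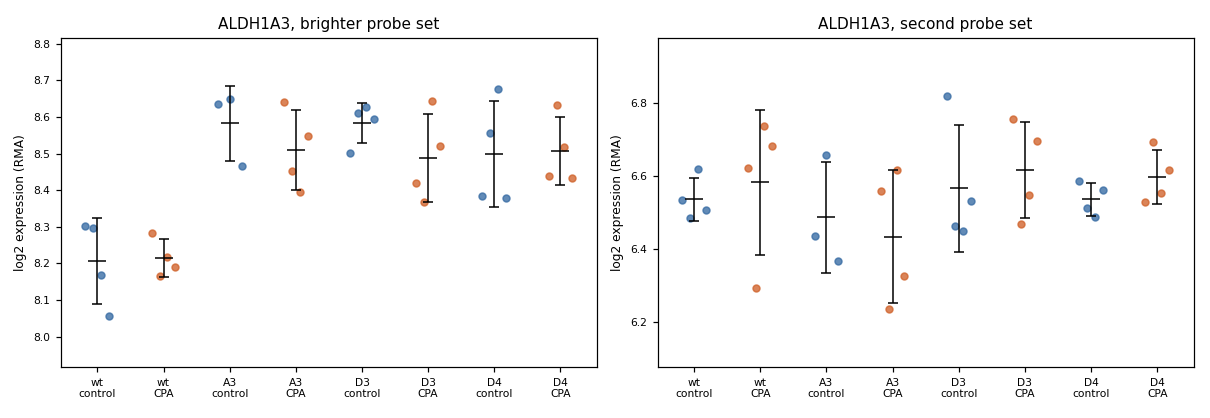
Log2 expression of ALDH1A3 by array on its brighter probe set (left) and its second probe set (right), with axes of equal length that do not start at 0; points are arrays (blue control, orange CPA), bars the group mean and whiskers the SD. The brighter set has all untreated wt arrays at 8.30 or below and all untreated clone arrays at 8.38 or above, and on the second set the groups overlap.

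ALDH1A1, a marker of stem-like cells in many carcinomas, had a mean of 4.42, at the 8.01 percentile of gene means, so its probe set lay near the bottom of the array's range. The untreated wt arrays read 4.40, 4.41, 4.17 and 4.10, those of A3 4.30, 4.66 and 4.30, those of D3 4.57, 4.78, 4.47 and 4.62, and those of D4 4.56, 4.44, 4.44 and 4.37. D3 alone had all arrays above all wt arrays, a separation given without its share over all genes. The difference of D3 from wt was 0.34 ± 0.13 (95% interval 0.08 to 0.61), at an adjusted p of 0.0586. It was not called, where 18.1% of all genes were. It passed under 4 of 9 other settings (adjusted p 0.0255 to 0.0454 in those). ALDH1A2, the main retinal dehydrogenase of the embryo, ranged over group means from 7.58 ± 0.06 (treated D3) to 7.82 ± 0.05 (untreated A3), and its untreated A3 arrays, 7.77, 7.87 and 7.83, lay above the wt arrays, 7.57 to 7.74. That difference was 0.18 ± 0.08 (adjusted p 0.101) and was not called, where 18.5% of all genes were. The share of all genes that separate in this way is not given.

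Of 28 fixed genes of retinoid metabolism and signalling, 21 were measured. In untreated tumours 2 were called in A3 against wt (1 higher, 1 lower), 3 in D3 (2 higher, 1 lower) and 4 in D4 (3 higher, 1 lower), with median differences of 0.05, 0.05 and 0.06. Over all genes 18.5%, 18.1% and 20.1% were called in these comparisons, a share no lower than that of the list. DHRS3, which reduces retinal back to retinol, was lower than in wt by -0.50 ± 0.15 in A3, -0.59 ± 0.14 in D3 and -0.73 ± 0.14 in D4. RBP4, the retinol carrier of plasma, was higher by 0.36 ± 0.11, 0.40 ± 0.10 and 0.33 ± 0.10. RDH10, which makes retinal from retinol, was higher in D3 than in A3 by 0.39 ± 0.09 (adjusted p 0.00974) and lower in D4 than in D3 by -0.36 ± 0.08 (adjusted p 0.0327). DHRS9, another retinol dehydrogenase, was higher in D4 than in wt by 0.75 ± 0.19, and in treated tumours by 1.18 ± 0.19.

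ALDH2, the mitochondrial enzyme that clears acetaldehyde after alcohol, had the widest range of group means of the 10 members, 0.54, from 6.62 ± 0.13 in treated D4 to 7.17 ± 0.17 in treated A3. Untreated wt read 7.32, 7.07, 6.88 and 6.90, and untreated A3 7.20, 7.08 and 7.07. Untreated D3 read 6.85, 6.98, 7.10 and 6.89. Untreated D4 read 6.72, 6.71, 6.66 and 6.72 and lay below all other untreated arrays, while D3 overlapped wt and A3. The difference of D4 was -0.34 ± 0.10 from wt (adjusted p 0.0104) and -0.42 ± 0.10 from A3 (adjusted p 0.018). Both calls depended on the arrays used. Without wt replicate 1, the highest, D4 differed from wt by -0.25 (adjusted p 0.0653). Without A3 replicate 1 or 4, D4 differed from A3 by -0.37 (adjusted p 0.103) or -0.44 (adjusted p 0.0557). The fit on only the groups compared also lost both (adjusted p 0.0622 and 0.144). D4 against D3, -0.25 ± 0.10, was not called (adjusted p 0.37). The arrays of D4 and D3 did not overlap, and the share of all genes with such separations of D4 is not given.

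After CPA, ALDH2 was again lowest in D4 and highest in A3. Treated A3 read 7.38, 7.16, 7.15 and 6.97, treated D3 6.80, 6.78, 6.90 and 6.81, and treated D4 6.72, 6.68, 6.43 and 6.66. Treated wt read 6.69, 6.88, 7.01 and 7.10 and overlapped both resistant clones. All treated D3 and D4 arrays lay below all treated A3 arrays, a separation given without its share over all genes. D4 was lower than A3 by -0.54 ± 0.10 (1.46-fold, adjusted p 0.000287). D3 was lower than A3 by -0.35 ± 0.10 (adjusted p 0.0303). The mean of the resistant clones lay -0.45 ± 0.08 from A3 (1.36-fold, adjusted p 0.000607). ALDH2 and ALDH18A1 were the 2 of 10 members called in that comparison, beside 8.1% of genes. Treated D4 was also lower than treated wt by -0.30 ± 0.10 (adjusted p 0.0319), a call that the replicate block (-0.27, adjusted p 0.0647), both rescalings and leaving out 1 of several arrays removed. The D3 call against treated A3 was likewise lost on only the groups compared (adjusted p 0.0798) and without 1 of several arrays; without A3 CPA replicate 1 the difference was -0.28 (adjusted p 0.156). The differences from A3 were not shown to change with CPA: the CPA effect in D4 minus that in A3 was -0.13 ± 0.14 (adjusted p 0.694) and in D3 minus A3 -0.18 ± 0.14 (adjusted p 1). The genes most like ALDH2 over 31 arrays were SRPX (r 0.80), CRELD2 (0.78) and PHLDA1 (0.78).

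ALDH1B1, the other mitochondrial acetaldehyde enzyme here, ran differently from ALDH2: it was lowest in wt. Untreated wt read 8.40, 8.40, 8.28 and 8.63, and untreated A3 8.66, 8.73 and 8.81. Untreated D3 read 8.89, 8.90, 8.96 and 8.86, and untreated D4 8.45, 8.70, 8.84 and 8.62. The D3 arrays were tightly grouped above every other untreated array, a separation given without its share over all genes. The D4 arrays overlapped wt and A3. The difference from wt was 0.48 ± 0.08 in D3 (1.39-fold, adjusted p 0.000124) and 0.31 ± 0.09 in A3 (adjusted p 0.0158). The A3 call was lost without wt replicate 3 (0.26, adjusted p 0.0673) or A3 replicate 4 (0.27, adjusted p 0.0816), and on only the groups compared (adjusted p 0.0909). D4 differed from wt by 0.23 ± 0.08, just outside the threshold (adjusted p 0.056). It was called with a variance trend (adjusted p 0.047), a further quantile normalization (0.0149), median centring (0.0323) and without the dimmest 30% of genes (0.0388). D4 and D3 differed by -0.25 ± 0.08 (adjusted p 0.274).

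In treated tumours no difference of ALDH1B1 between lines was called. Treated wt read 8.48, 8.45, 8.47 and 8.57, A3 8.72, 8.45, 8.61 and 8.64, D3 8.77, 8.56, 8.79 and 8.66, and D4 8.54, 8.82, 8.62 and 8.61. The groups overlapped, and D3 exceeded wt by 0.20 ± 0.08 (adjusted p 0.097). That difference was called with a further quantile normalization (0.28, adjusted p 0.0117) and with array weights (0.21, adjusted p 0.0484). The genes most like ALDH1B1 over the arrays were MRPL2 (r 0.90), MYBBP1A (0.88) and NOL6 (0.87). Among pairs of members, ALDH1A3 and ALDH1B1 had the highest correlation over the 31 arrays (r 0.73), followed by ALDH2 and ALDH18A1 (r 0.56), and ALDH3B1 and ALDH18A1 had the lowest (r -0.45). These correlations hold the line differences above and are given as descriptions.

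The ALDH3 members showed no called difference. ALDH3A1, the aldehyde dehydrogenase of cornea and a target of the aryl hydrocarbon receptor, had group means from 6.06 ± 0.05 in treated D4 to 6.24 ± 0.25 in untreated D4. Its arrays of 1 group scattered as widely as the groups differed: untreated A3 read 5.97, 6.53 and 5.86, and untreated D4 6.48, 5.90, 6.23 and 6.35. D3 and wt differed by -0.10 without treatment (95% interval -0.36 to 0.15), and D4 and wt by 0.06 (95% interval -0.20 to 0.31). ALDH3A2, the fatty aldehyde dehydrogenase lost in Sjögren-Larsson syndrome, had the narrowest range of group means, between 8.96 ± 0.06 (untreated A3) and 9.11 ± 0.05 (untreated D4). ALDH3B1, which acts on aldehydes of membrane lipids, ran from 7.60 ± 0.07 (untreated A3) to 7.88 ± 0.12 (treated D3). Its treated D3 arrays, 7.94, 7.80, 7.76 and 8.02, overlapped treated wt, 7.76, 7.69, 7.50 and 7.86, and the difference was 0.18 ± 0.08 (adjusted p 0.13). With array weights in the fit, ALDH3B1 was called lower in treated D4 than in treated D3 (-0.20, adjusted p 0.0322).

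ALDH5A1, succinic semialdehyde dehydrogenase, ran from 6.41 ± 0.12 in untreated wt to 6.62 ± 0.16 in treated A3. Its differences between lines, over both treatments, lay between -0.11 and 0.16, and the lowest adjusted p was 0.191.

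**Figure D4:**
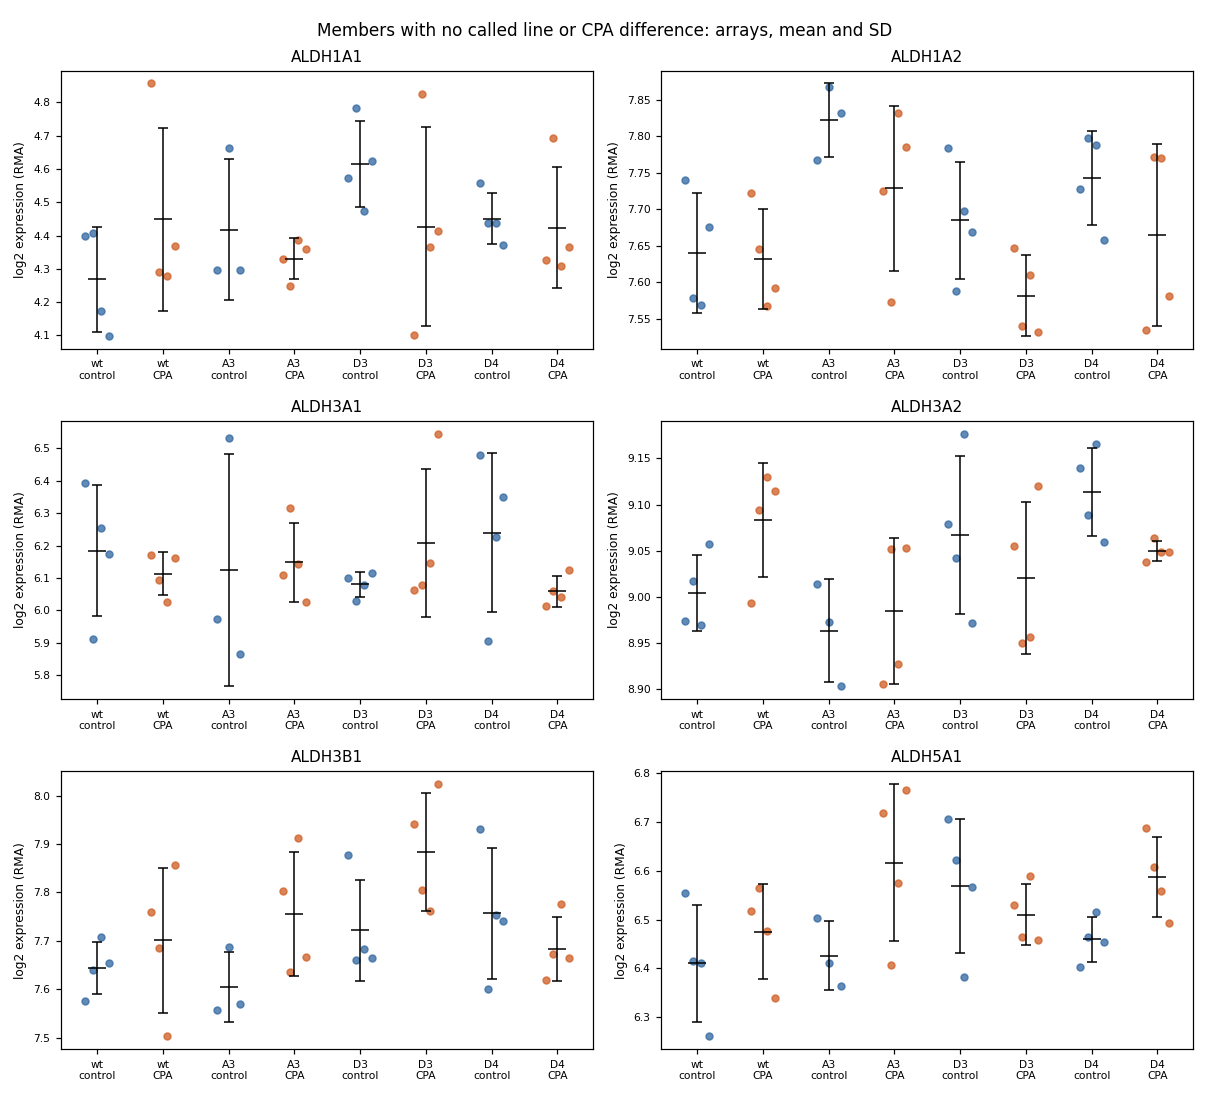
Log2 expression of ALDH1A1, ALDH1A2, ALDH3A1, ALDH3A2, ALDH3B1 and ALDH5A1 in the 8 groups (vertical axis, a separate scale in each panel that does not start at 0); points are arrays (blue control, orange CPA), bars the group mean and whiskers the SD. The groups overlap in most comparisons, and the untreated D3 arrays of ALDH1A1, 4.47 to 4.78, lie above the untreated wt arrays, 4.10 to 4.41. That difference was not called.

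Genes of pathways around these members are given from fixed lists, beside the 18.5% (A3), 18.1% (D3) and 20.1% (D4) of all genes called against wt. Of 7 measured genes of the aryl hydrocarbon receptor battery, NQO1, a quinone reductase, was higher than in untreated wt by 0.53 ± 0.08 in A3, 0.65 ± 0.08 in D3 and 0.75 ± 0.08 in D4, and ARNT, the partner of the receptor, was lower by -0.34 in D3 (adjusted p 0.00236) and -0.31 in D4 (adjusted p 0.00497). A3 had 1 of 7 called, D3 3 (1 higher, 2 lower) and D4 3 (2 higher, 1 lower), and the medians were 0.03, -0.06 and -0.10. Among 18 measured alcohol dehydrogenases and carbonyl reductases, which remove aldehydes by reduction, 3 were called in A3 against wt (1 higher, 2 lower), 4 in D3 (1 higher, 3 lower) and 5 in D4 (1 higher, 4 lower), with medians of 0.07, -0.01 and 0.08. These counts are near the share of all genes. AKR1C2, a ketosteroid reductase, was lower by -0.56 in A3 (adjusted p 0.0192), -0.79 in D3 (adjusted p 0.00055) and -0.95 in D4 (adjusted p 4.6e-05). AKR1C1 and AKR1C3 are close in sequence to AKR1C2 and their probes may share signal. AOX1, aldehyde oxidase, was higher by 0.53, 0.52 and 0.58 in A3, D3 and D4, with adjusted p of 0.00637, 0.00439 and 0.00139.

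Among 8 measured genes of fatty aldehyde and ether lipid metabolism, FAR2, which makes fatty alcohols from fatty acyl-CoA, was higher than in wt by 0.94 in A3 (adjusted p 1.62e-07), 0.68 in D3 (adjusted p 6.78e-06) and 0.42 in D4 (adjusted p 0.00182), and lower in D4 than in A3 by -0.52 (adjusted p 0.003). Against wt, A3 had 2 of 8 higher, D3 had 2 and D4 had 1, with medians of 0.12, 0.14 and 0.01. Of 8 measured GABA shunt genes, D4 had 1 higher than wt, the taurine transporter SLC6A6 (0.26, adjusted p 0.0264), and 1 higher than A3, GAD1, which makes GABA (0.39, adjusted p 0.0458). Of the other 9 aldehyde dehydrogenase genes, ALDH9A1, which oxidises aminobutyraldehyde, was higher in A3 than in wt by 0.18 ± 0.07 (adjusted p 0.0462), a call lost on only the groups compared (adjusted p 0.219), with the replicate block (0.065), with a further quantile normalization (0.103) and on leaving out 20 of the 31 arrays, one at a time. In treated tumours it was lower in D3 than in A3 by -0.30 ± 0.06 (adjusted p 0.00262; 0.0894 on only the groups compared). ALDH1L1, a folate enzyme, was higher in treated D3 than in treated wt by 0.34 ± 0.10 (adjusted p 0.0214), but by 0.26 without wt CPA replicate 3 (adjusted p 0.11) and 0.28 without D3 CPA replicate 5 (adjusted p 0.09).

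In treated tumours 10 of 60 member tests between lines were called, 3 higher and 7 lower, beside 12.1% of gene tests. A3 against wt gave 1 member, beside 16.3% of genes, D3 against wt 2, beside 16.4%, and D4 against wt 3, beside 15.1%. D3 against A3 gave 2 members, beside 4.55% of genes, and D4 against A3 gave 2, beside 12.4%. In D4 against D3 limma called no member, with 2 at an unadjusted p under 0.05, and called 8.05% of genes.

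CPA treatment within a line moved no member past the threshold. Over the 4 lines limma called 0 of 40 member tests, with 3 at an unadjusted p under 0.05, beside 0.414% of gene tests. D4 had 1.03% of all genes called, A3 0.352%, D3 0.231% and wt 0.0462%. The 3 member tests were ALDH1B1 in D3 (-0.21 ± 0.08, adjusted p 0.318), ALDH18A1 in D3 (-0.15 ± 0.07, adjusted p 0.376) and ALDH5A1 in A3 (0.19 ± 0.09, adjusted p 0.704). All 4 treated D3 arrays of ALDH1B1, 8.56 to 8.79, were below all 4 untreated ones, 8.86 to 8.96. Arrays of the groups did not overlap for 9.6% of genes in that comparison. ALDH1A1 differed after CPA by 0.18 in wt (95% interval -0.08 to 0.44), -0.19 in D3 (95% interval -0.45 to 0.07) and by amounts between these in A3 and D4. ALDH3A1 differed most in D4, -0.18 (95% interval -0.43 to 0.07). These intervals leave room for changes of a size like the differences between lines.

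**Figure D5:**
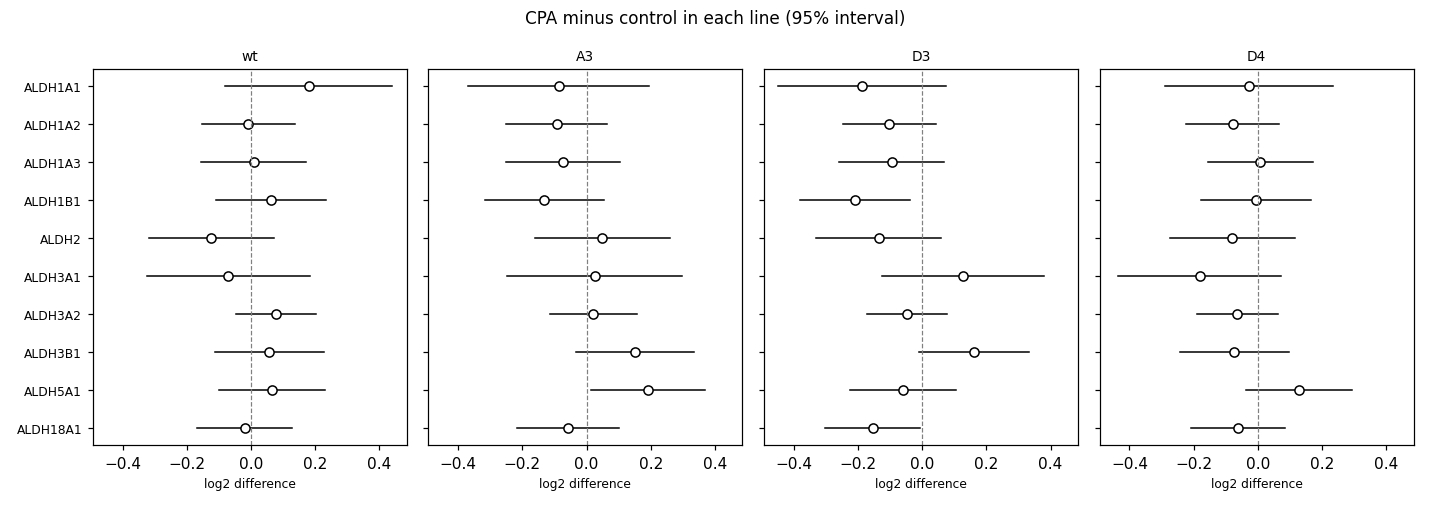
Log2 differences of the 10 members, CPA minus control, in wt, A3, D3 and D4 tumours (horizontal axis), with 95% confidence intervals from the limma fit; all circles are open because none passed an adjusted p of 0.05. The differences lie between -0.21 and 0.19.

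In D3, 8 of 10 members were lower after CPA, with a median of -0.10 against 0.01 over all genes, and in D4 8 of 10, with a median of -0.06 against -0.03. In wt 6 of 10 were higher and in A3 5 of 10. The CPA effect was compared between lines in 60 member tests; limma called 0 of them, with 2 at an unadjusted p under 0.05, beside 0.0144% of gene tests (0.0866% for D4 against D3, the comparison that gave all of them). These 2 were ALDH1B1, D3 against wt (-0.27 ± 0.12, adjusted p 0.733), and ALDH5A1, D3 against A3 (-0.25 ± 0.12, adjusted p 1).

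Markers of the tumour and host cells also differed between lines. In untreated tumours 3 markers were lower than in wt in all 3 clones, in comparisons where ALDH1A3 was higher. KDR, a VEGF receptor of endothelium, differed by -1.19 in A3, -1.01 in D3 and -1.74 in D4 (adjusted p 4.02e-07, 1.53e-06 and 8.19e-11), and by -0.73 between D4 and D3 (adjusted p 0.00354). COL3A1, a collagen chain, differed from wt by -1.01, -0.61 and -0.77 (adjusted p 4.37e-05, 0.00456 and 0.000448), and CDH1 by -1.03, -0.80 and -0.90 (adjusted p 1.83e-06, 2.25e-05 and 3.47e-06). In untreated A3, D3 and D4, 2, 2 and 1 of 11 fibroblast markers and 2, 1 and 2 of 9 endothelial markers were called against wt. This stands beside 18.5%, 18.1% and 20.1% of all genes called. Not all of them were lower: COL1A1 was higher in D3 by 0.43 (adjusted p 0.0393) and TEK in D4 by 0.38 (adjusted p 0.0286). Of 9 myeloid markers, CD68 was higher by 0.42 in A3 (adjusted p 0.000773) and 0.30 in D4 (adjusted p 0.00857). LYZ was lower in D4 by -0.60 (adjusted p 0.000134). The summed level of the endothelial list ran from 54.93 to 56.68 in untreated wt, 54.00 to 55.51 in A3, 54.44 to 55.75 in D3 and 54.37 to 55.91 in D4, and that of the fibroblast list from 72.23 to 72.72, 70.24 to 72.04, 72.12 to 73.30 and 71.50 to 73.19. Of 8 measured tumour cell markers, 4 were lower in untreated A3 than in wt, beside 18.5% of all genes called. Among them were KRT8, by -0.46 (adjusted p 0.00999), and EPCAM, by -0.39 (adjusted p 0.000975). In the untreated resistant clones 2 were higher than in A3, beside 3.89% of genes called. These were KRT8, by 0.58 (adjusted p 0.00208), and EPCAM, by 0.32 (adjusted p 0.00992). The summed level of the tumour cell list ran from 73.01 to 74.63 in untreated wt, 71.85 to 72.47 in A3, 72.53 to 74.19 in D3 and 71.79 to 74.35 in D4. Of 11 fibroblast and pericyte markers, 2 were higher in treated resistant clones than in treated A3, beside 8.1% of all genes called. These were RGS5, by 0.45 (adjusted p 0.000981), and COL1A1, by 0.49 (adjusted p 0.0142), where ALDH18A1 and ALDH2 were lower. The summed level of the fibroblast list ran from 69.79 to 71.31 in treated A3, 71.45 to 72.36 in D3 and 71.81 to 73.43 in D4. Of 9 myeloid markers CD68 was lower in that comparison, by -0.29 (adjusted p 0.00788). The summed level of the myeloid list ran from 47.99 to 49.66 in treated A3, 48.28 to 49.82 in D3 and 47.67 to 49.05 in D4. The part of these cells in the differences of the members was not tested.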

How the data were processed

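Affymetrix Human Gene 1.0 ST arrays measured total RNA (Trizol, biotin label, per the labels' protocols). The deposited table holds log2 expression values of 23989 probe sets on 31 arrays, which the submitters' processing notes trace to RMA; its version is not given in the sources used here. RMA brings the arrays to a common distribution at the level of single probes. The array medians of the deposited probe set values still ran from 6.59 to 6.73. The design text planned 32 arrays, and 1 untreated A3 array that the submitters left out as an outlier was not analysed here.

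The platform annotation gives 17624 probe sets 1 gene symbol, 411 several and 5954 none. The brightest set per gene was kept (17314 genes, 17290 found in RefSeq by Entrez number). limma 3.58.1 in R 4.3.3 (lmFit, eBayes) fitted 8 group means at once, with 23 residual degrees of freedom. The median residual SD of 0.148 gives a difference of 2 groups of 4 arrays an SE of 0.105, so precision is limited by how few arrays there are. The code was tested on simulated data.

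Named genes were all 10 members, the second ALDH1A3 set, up to 4 called genes of smallest p per list and comparison, and for the 3 members of widest range the 3 genes of highest Pearson r. Members and lists were chosen with earlier results of these data known. Same-numbered arrays were checked for pairing by the correlation of their deviations from group means: over 28 pairs of groups with 84 same-number pairs it ran from -0.66 to 0.60, and in 2 of them, untreated wt with D3 and untreated D3 with D4, every pair exceeded 0.1. In those 2 comparisons the replicate block changed no member's call. Alternatives were another choice of arrays, probe sets, scaling, weights, variance prior and filter.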

Additional observations from a re-analysis of the deposited data

Results flagged for a closer look

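In groups of 4 arrays, 5 of 77 group tests, over the members, the second ALDH1A3 set and the groups of 4, had an array far from the other 3 (the gap as a share of the range, above Dixon's 95% critical value); chance flags about 1 in 20. ALDH1A1 had treated wt replicate 1 at 4.86, with the next array at 4.37, and treated D4 replicate 2 at 4.69, with the next at 4.36. ALDH3B1 had untreated D3 replicate 1 at 7.88, with the next at 7.68. ALDH2 had untreated D4 replicate 4 at 6.66 below the next at 6.71, and ALDH18A1 had treated D4 replicate 4 at 10.23 above the next at 10.15; both groups were tight, so the gaps are small.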

How the results depend on the processing

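The results were recomputed under 9 other settings, with each of the 31 arrays left out in turn, and without the 4 arrays that lay farthest from the mean of their group, a choice made after seeing the data. No member changed direction among its called comparisons. Of 24 called member comparisons, 11 stayed called in every one of these: ALDH18A1 in D3 and D4 against wt with and without CPA, in treated D3 and D4 against A3 and in the treated resistant clones against A3, ALDH2 in treated D4 and in the treated resistant clones against A3, and, in untreated tumours only, ALDH1B1 and ALDH1A3 in D3 against wt. The 11 calls between untreated lines became 6 when only the groups compared were fitted, and lay between 7 (without A3 control replicate 4) and 12 over the arrays left out. The 1 call of resistant clones against A3 without CPA became 0 when only the groups compared were fitted and 2 with array weights, and lay between 0 and 2 over the arrays left out: 0 without A3 control replicate 4, and 2 without wt control replicate 1. The 10 calls between treated lines became 7 with the mean of the probe sets of a gene, 8 on only the groups compared and 13 with array weights. With the replicate block they became 9 through ALDH2 in D4 against wt, and no other member's call changed. No CPA effect and no difference of CPA effects of a member was called under any alternative. ALDH1A1 drops out of the fit without the dimmest 30% of genes. The spread between 4 arrays limits what can be seen.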
